A study of Homo sapiens with 2 samples.

Results

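Base excision, nucleotide excision and mismatch repair, with direct reversal by MGMT, were described from 43 listed genes in SK-ES1 cells and in a radiation-adapted derivative. A gene was kept where either array gave its probe a detection p-value below 0.01. By this rule 39 of the 43 genes were kept, of 10189 genes kept on the arrays as a whole: 21 of 22 for base excision repair, 13 of 15 for nucleotide excision repair, 4 of 5 for mismatch repair, and MGMT. Of the 39, 38 were detected on both arrays and 1, NEIL1, on the radiation-adapted array alone. MPG, ERCC6, ERCC4 and MLH3 were not kept.

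SK-ES1 is an established Ewing sarcoma line. Total RNA of wild type cells, with no radiation given in the labels, and of radiation-adapted cells, labelled with 4 Gy, was put on Illumina BeadChips, which read each transcript by biotin label on beads carrying short probes. The series asks how the adapted line differs from its parent. The labels do not say how the 4 Gy was delivered, whether the adapted line is a clone, or how long after radiation RNA was taken. There was 1 array per group, so nothing here has a replicate check and no test was made. Because whole cultures were measured, fewer cells with a transcript and less transcript per cell cannot be told apart.

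The 3 pathways mend damaged or mispaired bases. In base excision repair a glycosylase cuts out a damaged base, APEX1 nicks the abasic site, POLB fills the gap and LIG3 with its scaffold XRCC1 seals it, while PARP1 and PARP2 mark the open strand. In nucleotide excision repair bulky lesions are found by sensors or by a stalled RNA polymerase, TFIIH unwinds the DNA, XPA checks the damage, and ERCC1-ERCC4 and ERCC5 cut on either side. In mismatch repair MutS homologues find copying errors and MutL homologues direct removal of the new strand. Oxidised bases and single-strand breaks, both made by ionising radiation, are substrates of base excision repair.

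Of the 47323 probes, 15887 were detected in wild type and 15399 in radiation-adapted cells. Of 9 Ewing sarcoma markers 8 were detected on both arrays, with log2 ratios from -0.68 to 0.58, and NR0B1 was matched to no probe, so it was not analysed here. Of 8 fibroblast markers 6 were kept, with ratios from -0.59 (DCN) to 1.10 (COL1A2, with another detected probe below 0). Of 8 leukocyte markers 4 were kept, from -1.26 (CORO1A, detected in wild type cells alone) to 0.89 (CD68, with another detected probe below 0). PTPRC, CD3E and CD14 were among those not kept. Of 6 epithelial markers 2 were kept, from -0.31 to -0.18. The 6 reference genes ran from -0.59 (PPIA) to 0.30 (B2M), with 5 below 0, among them ACTB at -0.07 and GAPDH at -0.09. Ratios are radiation-adapted minus wild type in normalized log2 signal, to which an offset of 16 was added before the log, so ratios of dim genes are understated.

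Under 1.5-fold between the arrays were 33 of the 39 repair genes, beside 7940 of all 10189 genes. At 2-fold or more, 3 were lower in radiation-adapted cells (NEIL3, UNG and XPA) and 1 was higher (MBD4). The 3 lower genes are 7.69% of the 39, where 2.07% of all 10189 genes were lower by 2-fold or more. The 1 higher gene is 2.56% of the 39, where 4.02% of all genes were higher by as much. At 1.5-fold the repair genes numbered 5 lower (12.8%) and 1 higher (2.56%), against 9.59% and 12.5% of all genes. The median log2 ratio of the 39 genes was -0.10, with 24 below 0 and 15 above, and the median of all genes was -0.04, with 5437 below 0 and 4744 above. Without background correction the counts over all genes were 98 higher and 27 lower, and with an offset of 50 they were 213 and 70, in place of 410 and 211. UNG alone of the repair genes was past 2-fold under each of 5 normalizations, with log2 ratios from -1.10 to -1.03.

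**Figure D1:**
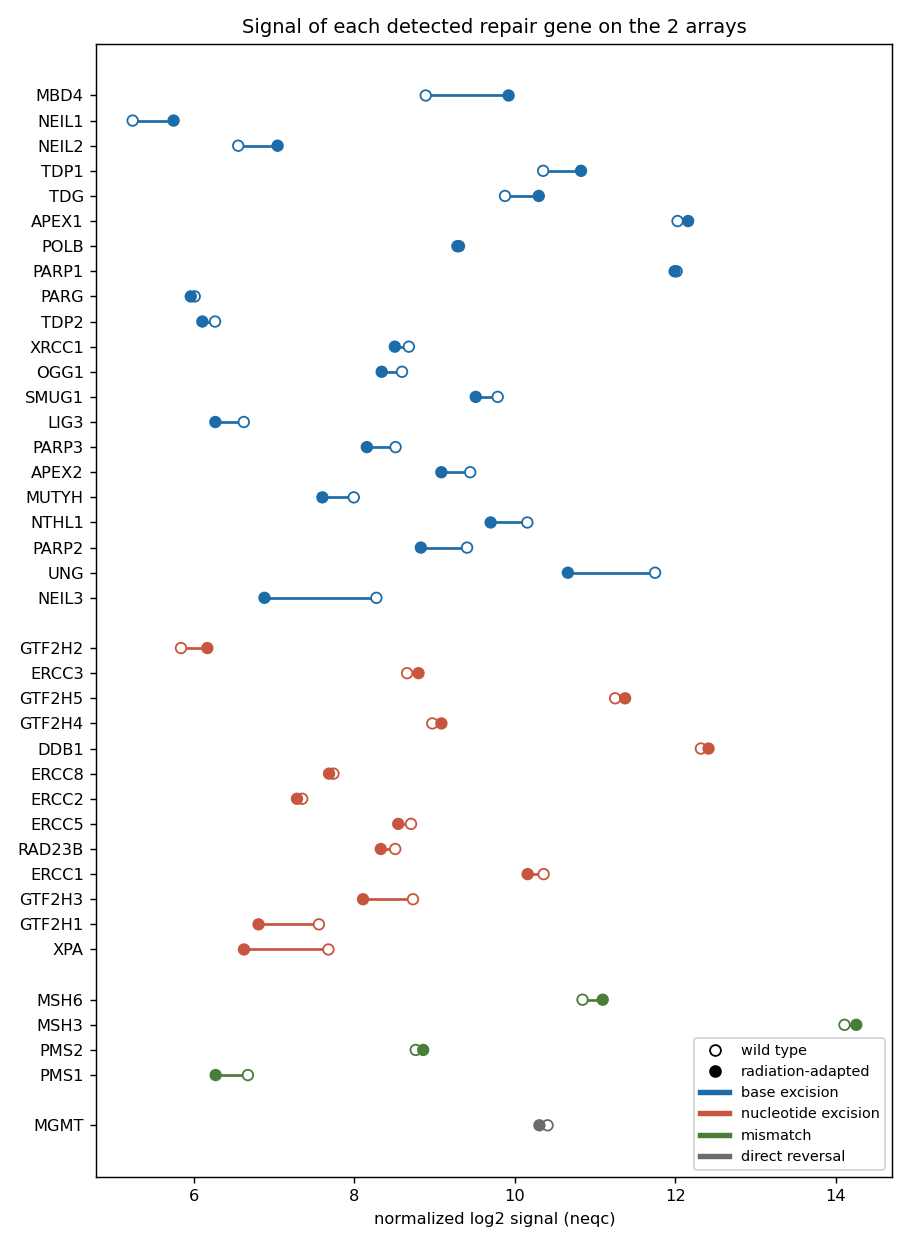
Normalized log2 signal (x axis) of each of the 39 kept repair genes (y axis) in wild type (open circles) and radiation-adapted cells (filled circles), 1 array each, coloured by pathway. The longest lines are those of NEIL3 (8.27 to 6.88), UNG (11.75 to 10.66), XPA (7.68 to 6.62) and MBD4 (8.89 to 9.92). A probe's position does not rank genes by transcript number, since probes differ in brightness.

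Among the glycosylases of base excision repair, the enzymes that recognise the damaged base, 10 of 11 were kept and held both the lowest and the highest ratio of all 39 repair genes. Their median log2 ratio was -0.26, with 4 above 0 and 6 below. NEIL3, which removes oxidised bases from single-stranded DNA and unhooks crosslinks and is known for its expression in dividing cells, had a raw signal of 412.5 in wild type and 234.8 in radiation-adapted cells. After normalization it was 2.63-fold lower in the radiation-adapted cells (log2 ratio -1.39), and 49 of the 10189 genes had a lower ratio. Both arrays detected this NEIL3 probe, and over the 5 normalizations its log2 ratio ran from -1.39 to -0.83, the smallest value being that without background correction. A further NEIL3 probe was detected on neither array.

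UNG, which removes uracil from DNA and whose nuclear form works at replication forks, had a raw signal of 3506.6 in wild type and 1750.3 in radiation-adapted cells. It was 2.12-fold lower after normalization (log2 ratio -1.09), and 144 genes had a lower ratio. This bright probe is annotated to a UNG transcript other than that of the nuclear form, and whether it reads both was not tested. The other probes of UNG were detected in wild type cells only, with raw signals of 173.9 against 152.0 and 177.6 against 136.4. The lower of them in the radiation-adapted cells is annotated to the transcript of the nuclear form and was at least 1.37-fold lower, and the other at least 1.29-fold lower. An "at least" value sets the brighter signal against the dimmest signal that the other array detects, or against the probe's own signal there if that is higher. All 3 UNG probes were thus lower in the radiation-adapted cells. The dim ones counted as detected only through the array where they are higher, so they are not independent support for the bright probe.

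MBD4, which takes out thymine or uracil left by deamination at methylated CpG sites, went the other way. Its 1 probe had a raw signal of 579.1 in wild type and 1094.0 in radiation-adapted cells, and it was 2.05-fold higher after normalization (log2 ratio 1.03). This lay just past 2-fold: over the 5 normalizations the ratio ran from 0.87 to 1.04, and it was below 2-fold without background correction and with an offset of 50. TDG acts on the same mispairs and was also higher by both of its probes, with raw signals of 1043.2 and 1383.0 on the brighter one (log2 ratio 0.42) and 601.6 and 833.9 on the other (0.52). Neither TDG probe reached 1.5-fold.

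SMUG1, a further uracil glycosylase, was at -0.27. The glycosylases of oxidised bases did not share a direction. NTHL1, which acts on oxidised pyrimidines, had raw signals of 1238.7 and 950.1 (log2 ratio -0.46), and OGG1, which removes oxidised guanine, 490.5 and 443.9 (-0.25, with its other probe at -0.12). MUTYH, which removes adenine paired with oxidised guanine, was at -0.39 on its bright probe and at 0.61 on a dim probe that was detected in radiation-adapted cells alone, at least 1.09-fold higher there. NEIL2 had raw signals of 201.5 and 249.2 (0.49). NEIL1 was detected in radiation-adapted cells alone, with raw signals of 147.9 and 168.1 and detection p-values of 0.02468 and 0.00649, and was at least 1.14-fold higher. The members of the NEIL family thus lay on both sides of 0. NEIL1 was near the detection limit, and NEIL2, though dim, was detected on both arrays.

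NEIL1 was also the kept gene nearest to the detection threshold. GTF2H2 and PARG came next, with detection p-values in wild type cells of 0.0026 and 0.0013. Just outside lay MPG, the glycosylase of alkylated purines, whose brightest probe had raw signals of 156.8 and 143.3 and detection p-values of 0.01039 and 0.08312. ERCC6, with raw signals of 134.7 and 155.0, had p-values of 0.19481 and 0.01948.

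The promoters of the 3 glycosylase genes at 2-fold or more are shown because these were the glycosylase genes farthest from even and they differed in direction. Each is a RefSeq window of GRCh38.p14, read 5′ to 3′ on the gene's strand, from 250 bases before the annotated start to 50 bases after it, and capitals mark matches to CCAAT or its reverse complement ATTGG.
NEIL3 promoter, chr4:177309624-177309923, plus strand: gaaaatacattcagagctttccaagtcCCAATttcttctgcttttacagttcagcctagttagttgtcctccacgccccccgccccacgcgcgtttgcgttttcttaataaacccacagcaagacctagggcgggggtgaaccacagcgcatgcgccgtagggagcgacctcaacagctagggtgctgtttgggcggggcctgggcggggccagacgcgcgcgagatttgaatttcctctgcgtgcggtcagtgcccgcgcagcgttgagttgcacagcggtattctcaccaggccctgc
UNG promoter, chr12:109097347-109097646, plus strand: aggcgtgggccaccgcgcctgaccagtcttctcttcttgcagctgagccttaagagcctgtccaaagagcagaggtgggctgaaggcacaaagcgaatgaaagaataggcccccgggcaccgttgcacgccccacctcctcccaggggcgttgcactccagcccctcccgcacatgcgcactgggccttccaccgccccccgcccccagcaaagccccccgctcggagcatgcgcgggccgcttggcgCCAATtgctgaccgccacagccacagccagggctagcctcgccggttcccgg
MBD4 promoter, chr3:129439899-129440198, minus strand: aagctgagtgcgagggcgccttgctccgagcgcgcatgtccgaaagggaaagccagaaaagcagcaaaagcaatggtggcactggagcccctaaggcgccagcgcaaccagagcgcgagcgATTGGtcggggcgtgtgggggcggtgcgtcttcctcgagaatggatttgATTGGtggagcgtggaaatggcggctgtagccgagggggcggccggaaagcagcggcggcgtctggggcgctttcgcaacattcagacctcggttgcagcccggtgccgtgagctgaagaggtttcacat

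Promoter windows were found for 36 of the 39 genes and searched on both strands for CCAAT, for the ETS core CCGGAAGT and for 4 forms of the E2F site, TTTCCCGC, TTTGGCGC, TTTCGCGC and TTTGGCGG. NEIL3 and UNG held 1 CCAAT each and MBD4 held 2, and 17 of the 36 windows (47.2%) held at least 1, against 35.7% of all 27305 windows and 37.9% of those of 8241 detected genes. None of the E2F forms was found in the windows of NEIL3, UNG, XPA or MBD4. They were found in 2 of the 36 (5.56%), MSH3 and MSH6, against 3.43% of all windows and 5.96% of those of detected genes. In MSH3 the match to TTTGGCGC overlapped that to TTTCGCGC on the other strand. The ETS core was found in 6 of the 36 (16.7%), against 4.44% of all windows and 9.43% of those of detected genes. These matches describe letters in the windows, and E2F and ETS factors were not measured at these sites.

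The steps after the glycosylase differed less. APEX1, the main nuclease for abasic sites, had raw signals of 4199.1 and 4765.1 (log2 ratio 0.13) and a second probe at -0.13. APEX2, its minor relative, had raw signals of 798.0 and 661.1 (-0.36). POLB, the gap-filling polymerase, was at 0.02, with raw signals of 725.9 and 753.9, and XRCC1 at -0.18, with 514.6 and 483.5. LIG3 was at -0.35 on its brighter probe and at 0.33 on a second detected probe, so its direction was not settled by these probes. No gene of these steps reached 1.5-fold, and neither did 7940 of all 10189 genes.

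The genes of poly(ADP-ribose) turnover lay at or below 0. PARP1, the main sensor of strand breaks, had raw signals of 4163.0 and 4266.7 and a log2 ratio of -0.02. PARP2, its relative that also acts at breaks, had raw signals of 780.3 and 573.8 (log2 ratio -0.58, or 1.49-fold lower), and its second probe was at -0.50. PARP2 was thus lower by both probes, just short of 1.5-fold. PARP3 was at -0.36, with a second probe at 0.09, and PARG, which takes the polymer off again, was at -0.05 and -0.16 on its 2 probes. The nuclease TDP1, which frees trapped type I topoisomerase, was at 0.47 on its bright probe (raw signals 1406.8 and 1949.2) and at -0.31 on a second. TDP2, the counterpart for type II topoisomerase, was at -0.16 and -0.32.

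Over base excision repair as a whole, 2 genes (9.52%) were at least 2-fold lower and 1 (4.76%) at least 2-fold higher, and no other gene reached 1.5-fold. Of all genes, 2.07% were lower and 4.02% higher by 2-fold or more, and 9.59% and 12.5% by 1.5-fold or more. The median log2 ratio was -0.18, with 7 of 21 above 0.

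**Figure D2:**
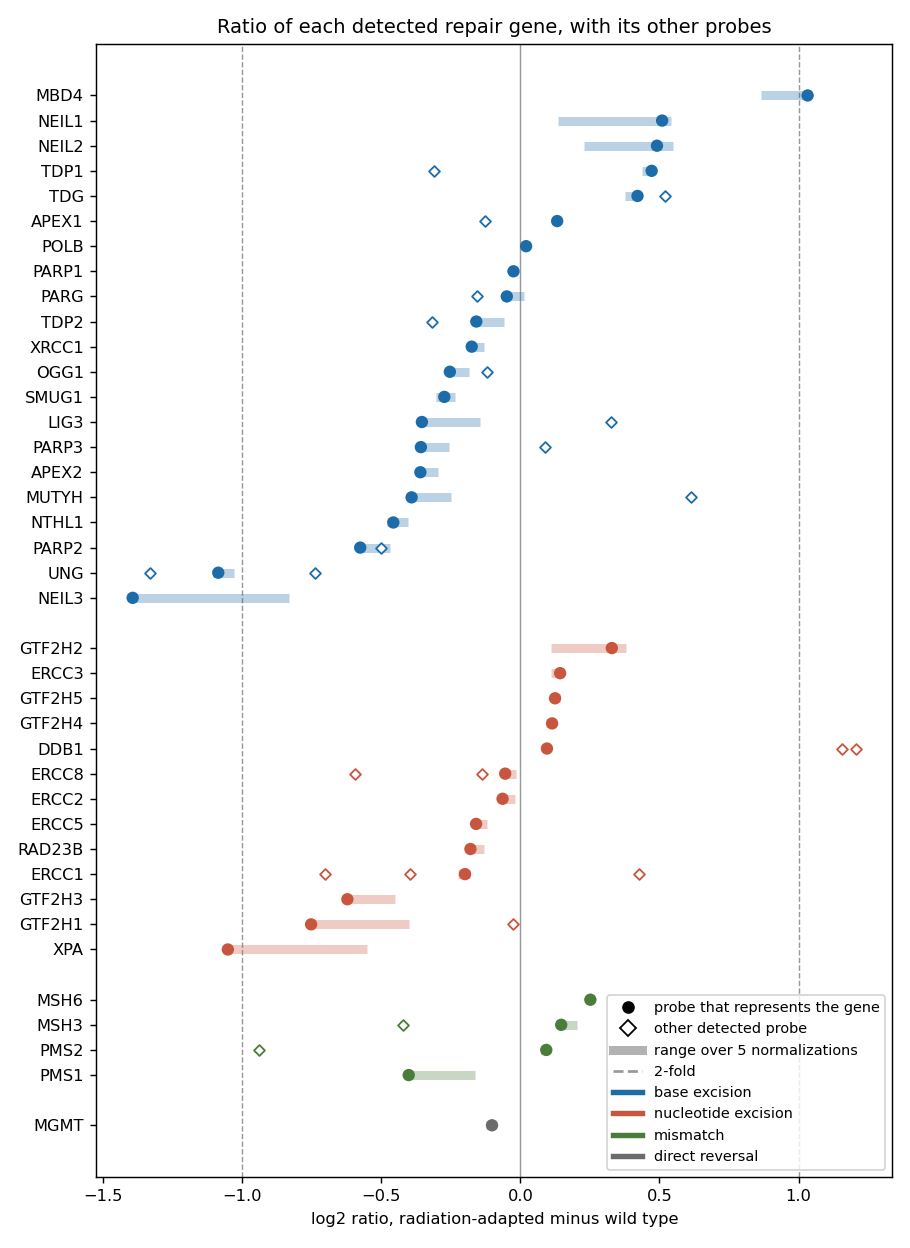
Log2 ratio, radiation-adapted minus wild type (x axis), of each kept repair gene (y axis). Filled circles are the probes that represent the genes, open diamonds other detected probes of the same gene, pale bars the range over 5 normalizations, and dashed lines 2-fold. All 3 UNG points lie below 0, while 8 genes have probes on both sides of 0, and the 2 dim DDB1 probes (1.16 and 1.21) lie far from its bright probe (0.10). The dim UNG and DDB1 probes counted as detected only through the array where they are higher, which favours their direction.

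In nucleotide excision repair 1 gene was past 2-fold. XPA, which checks the lesion and holds the excision complex together, had raw signals of 309.5 in wild type and 214.9 in radiation-adapted cells and was 2.07-fold lower (log2 ratio -1.05), with 168 genes at a lower ratio. XPA had a single probe, detected on both arrays with a p-value of 0, and over the 5 normalizations its ratio ran from -1.05 to -0.55. It was below 2-fold without background correction and with an offset of 50. Its promoter, shown in the same way, held none of the motifs searched, so it carries no capitals.
XPA promoter, chr9:97697291-97697590, minus strand: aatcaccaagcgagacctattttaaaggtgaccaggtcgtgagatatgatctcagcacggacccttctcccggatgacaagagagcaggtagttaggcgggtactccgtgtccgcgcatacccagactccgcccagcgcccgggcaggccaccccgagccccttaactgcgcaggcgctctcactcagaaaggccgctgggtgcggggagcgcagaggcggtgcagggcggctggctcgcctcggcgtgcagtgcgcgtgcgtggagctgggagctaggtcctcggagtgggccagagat

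TFIIH, the complex that opens the DNA and also serves transcription, had 7 of 7 genes kept and no common direction. The core subunit genes GTF2H1 and GTF2H3 were lower. GTF2H1 had raw signals of 293.4 and 228.3 (log2 ratio -0.75, or 1.68-fold lower), but a second GTF2H1 probe, with 186.4 and 191.8, was at -0.03. GTF2H3 had raw signals of 528.9 and 395.7 on its 1 probe (-0.62, or 1.54-fold lower). Without background correction the 2 genes were at -0.40 and -0.45, under 1.5-fold. The helicase genes ERCC2 and ERCC3 were at -0.06 and 0.14, GTF2H4 at 0.11 and GTF2H5, the smallest subunit, at 0.12, with raw signals of 2481.3 and 2823.7. GTF2H2 was at 0.33 near the detection limit, and its value is uncertain because the genome holds near-identical copies of this gene.

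Of the genes that find the damage, DDB1, an adaptor of the CUL4 ubiquitin ligase, had the most uneven probes. Its bright probe had raw signals of 5144.4 and 5656.7 (log2 ratio 0.10). Its other 2 probes were dim and detected in radiation-adapted cells alone, with 138.5 against 182.0, at least 1.42-fold higher, and 151.6 against 211.6, at least 2.03-fold higher. All 3 probes are annotated to the same transcript, and which of them reports DDB1 best was not tested. With the median of each gene's detected probes in place of the brightest, DDB1 was the 1 gene of the pathway higher by 2-fold or more. That median is the ratio of a dim probe (1.16), which counted as detected only through the array where it is higher. Its "at least" value is 1.42-fold, so the 2-fold count is not support for a higher DDB1. RAD23B, the partner of the sensor that scans the whole genome, was at -0.18. ERCC8, which acts where RNA polymerase has stalled, was at -0.05 and -0.14 on its brighter probes and, on a dim probe detected in wild type cells alone, at least 1.18-fold lower.

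Both incision nuclease genes that were kept lay below 0. ERCC1, the partner of ERCC4, had raw signals of 1412.1 and 1267.9 (log2 ratio -0.20), its further bright probes were at -0.40 and -0.70, and a dim probe seen in radiation-adapted cells alone was at least 1.09-fold higher. ERCC5, which makes the other cut, had 522.2 and 493.7 (-0.16). ERCC4 had raw signals of 135.6 and 137.2 on its brighter probe and was not kept. Over the pathway the median log2 ratio was -0.06, with 5 of 13 genes above 0, 3 (23.1%) at least 1.5-fold lower and none as much higher. Of all genes, 9.59% were lower and 12.5% higher by as much. GTF2H1, among the 3, had a second probe at -0.03. At 2-fold the 1 lower gene, XPA, is 7.69% of the 13, against 2.07% of all genes.

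Mismatch repair genes lay within 1.5-fold on their representing probes, as did 7940 of all 10189 genes. MSH6, which recognises single mispairs and short loops, had raw signals of 1920.9 and 2337.1 (log2 ratio 0.25). MSH3, which recognises larger loops, had 17136.1 and 20459.1 on its bright probe (0.15), while its second probe, with 371.4 and 318.3, was at -0.42. The 2 MSH3 probes thus disagree in direction, although both are annotated to the same transcript, and which of them reports MSH3 best was not tested. The bright probe's signals are near those of ACTB (18787.6 and 19471.5), and whether it also reads other transcripts was not tested. PMS2, the MutL homologue with the main nicking activity, was at 0.09 with raw signals of 539.8 and 583.7, while a dim probe detected in wild type cells alone had 157.8 and 131.5 (-0.94), too close to the detection limit for an "at least" value. PMS2 also has many pseudogene copies, so its value is uncertain. PMS1, whose part in repair is minor, had 210.1 and 192.7 (-0.40), and MLH3, known mainly from meiosis, had 141.8 and 135.5 and was not kept.

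The median log2 ratio of the 4 mismatch repair genes was 0.12, but it was -0.27 when the median of a gene's detected probes stood in place of the brightest probe. The sign of this median therefore depended on which probes of MSH3 and PMS2 were read. The PMS2 value behind it, -0.42, rests in part on the dim probe at -0.94, which counted as detected only through the array where it is higher. The change of sign was thus partly fixed by the detection rule, and no direction is drawn for the pathway.

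MGMT, which reverses methylated guanine by taking the alkyl group onto itself, was alike on the arrays. It had raw signals of 1453.5 in wild type and 1389.5 in radiation-adapted cells on its 1 probe, a log2 ratio of -0.10. ALKBH2 and ALKBH3, dioxygenases that also reverse alkyl damage, were at -0.12 and -0.34.

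Of the 39 genes, 22 rested on 1 detected probe and 17 on 2 or more. Of the 17, 9 had all detected probes on 1 side of 0 (OGG1, UNG, TDG, PARP2, PARG, TDP2, DDB1, ERCC8 and GTF2H1), and 8 had probes on both sides (MUTYH, APEX1, LIG3, PARP3, TDP1, ERCC1, MSH3 and PMS2). UNG, DDB1 and ERCC8 include probes detected only on the array where they are higher. Their agreement was thus partly fixed by the detection rule, as was the disagreement within MUTYH, ERCC1 and PMS2. The log2 ratios of a gene's 2 brightest detected probes differed with an SD of 0.59 over these 17 genes and of 0.47 over all 2567 genes with such a pair. Most ratios given here are smaller than that spread, and probes of a gene can differ by isoform as well as by error, while the spread between cultures is unknown.

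**Figure D3:**
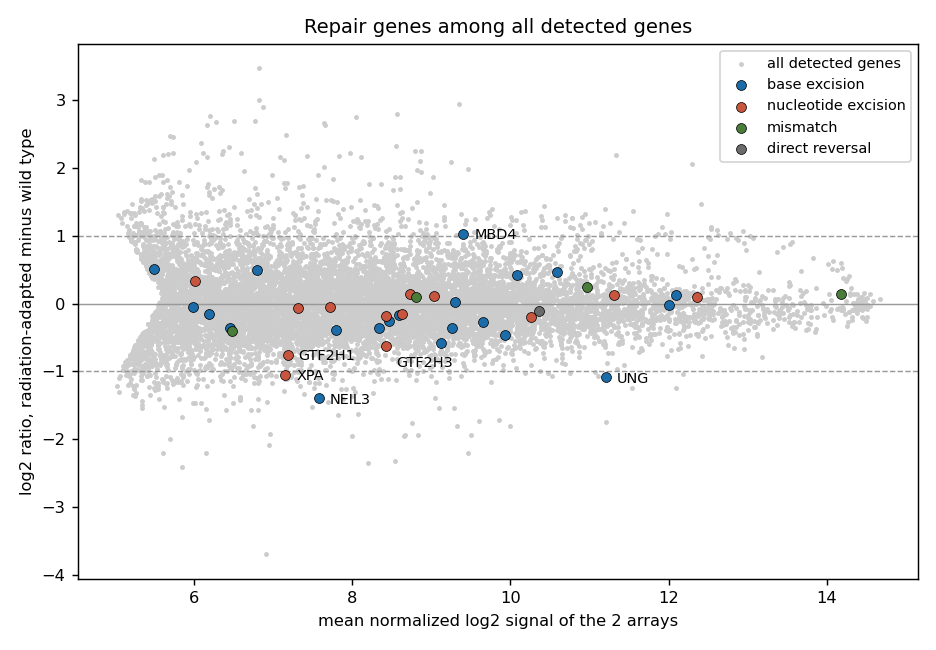
Log2 ratio (y axis) against the mean normalized log2 signal of the 2 arrays (x axis) for all 10189 detected genes (grey) and the 39 repair genes (coloured by pathway), with dashed lines at 2-fold. NEIL3, UNG and XPA lie below the lower line, MBD4 just above the upper one, and the remaining 35 repair genes between them.

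Other genes of the same pathways were read from lists of further members. Of 14 further base excision and single-strand break repair genes 11 were kept, none at 1.5-fold, with a median of -0.01. The highest were POLE, the catalytic subunit of a replicative polymerase, at 0.45 and LIG1, the replicative ligase, at 0.06, and the lowest POLE3 at -0.37 and POLE2 at -0.35. Of 14 further nucleotide excision repair genes 13 were kept, with a median of -0.17. By 1.5-fold or more, 2 (15.4%) were lower and none higher, against 9.59% and 12.5% of all genes. The 2 were DDB2 and CUL4A. DDB2, the sensor of ultraviolet damage that works with DDB1, was detected in wild type cells alone (raw signals 200.1 and 159.3) and was at least 1.84-fold lower. CUL4A, the scaffold of the DDB1 ligase, was at -0.61 (865.8 and 618.7). UVSSA (0.33) and CUL4B (0.25, with another probe below 0) were highest. RBX1, the ring subunit of the same ligase, was at 0.20, so the genes of the DDB1 ligase on this list lay on both sides of 0.

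Of 14 further mismatch repair genes 13 were kept, with a median of -0.47, 4 (30.8%) lower by 1.5-fold or more and none as much higher, against 9.59% and 12.5% of all genes. EXO1, the exonuclease that removes the mismatched strand, had raw signals of 935.4 and 586.4 (log2 ratio -0.83), and RFC2, a subunit of the clamp loader, 814.8 and 545.4 (-0.74). Each had a second detected probe below 0 as well. Of the 4, POLD4 was detected in wild type cells alone and was at least 1.07-fold lower. The highest were the polymerase subunit genes POLD1 (0.31) and, for the clamp loader, RFC4 (0.16). The clamp loader and polymerase genes on this list also serve replication.

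Of 20 replication and S-phase genes 16 were kept, 13 of them below 0, with a median log2 ratio of -0.38 beside -0.04 over all genes. Most of them, 12, were under 1.5-fold, 3 (18.8%) were at least 1.5-fold lower and 1 (6.25%) as much higher, against 9.59% and 12.5% of all genes, and none reached 2-fold. RRM2, a subunit of ribonucleotide reductase, had raw signals of 890.2 and 588.5 (-0.74), and TYMS, which makes thymidylate, 4047.2 and 2730.5 (-0.65). MCM2 (0.81) and CCNE1 (0.45) were highest. UNG, NEIL3 and EXO1 are known to be expressed with the cell cycle, and the part of cell cycle in their ratios was not tested.

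**Figure D4:**
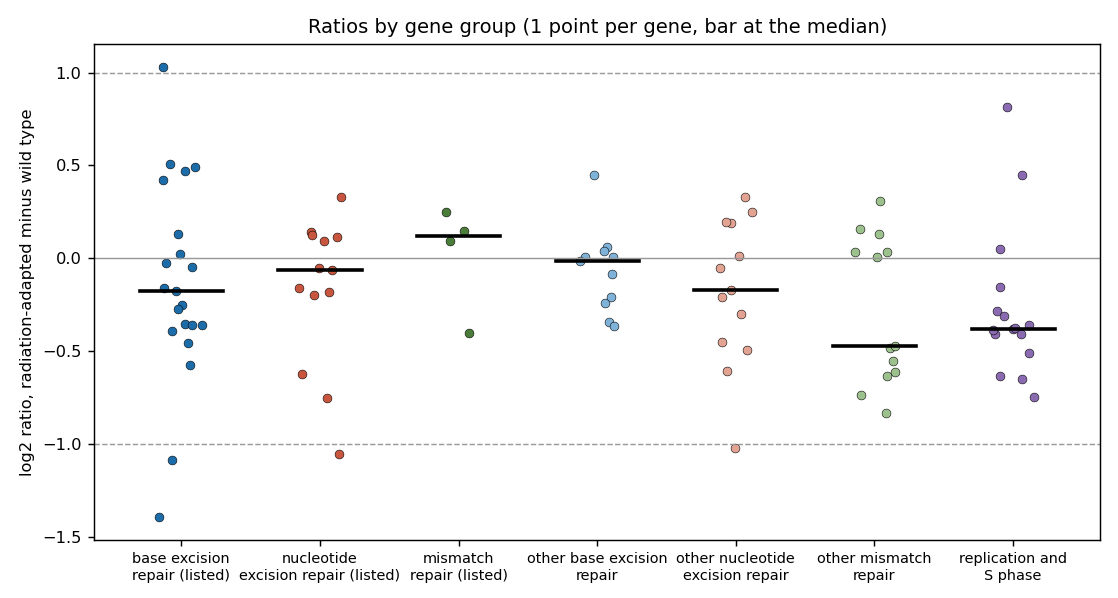
Log2 ratio (y axis) of each kept gene, 1 point per gene, in the 3 listed pathways, in 3 lists of their further genes and in the replication and S-phase list, with black bars at the medians and dashed lines at 2-fold. The medians are -0.18, -0.06 and 0.12 for the listed pathways, -0.01, -0.17 and -0.47 for the further genes and -0.38 for replication. PCNA stands in 2 of the lists of further genes, as does RPA1.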

How the data were processed

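Total RNA of wild type and of radiation-adapted SK-ES1 cells was extracted with Trizol and labelled with an Illumina TotalPrep kit, per the labels' protocols, with 1 array each, grouped by title. The authors deposited an average bead signal intensity per probe, neither background-subtracted nor normalized, and each probe's detection p-value, set by negative controls of its own array, per the file headers. Their processed intensity table, whose making is not stated, was read from its values as linear, background-subtracted and quantile-normalized (medians of 10.6, values from -28.6 to 27679.4), and was an alternative only. Scanner and software: not given in the sources used here.

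Signals were processed with neqc in limma 3.58.1 (R 4.3.3): normexp from the detection p-values, an offset of 16, quantile normalization, log2. Python 3.11.15, pandas 2.3.3 and NumPy 2.4.6 did the rest. Of 47323 probes 30113 had 1 gene in the platform annotation, and symbols were updated by gene ID through RefSeq (GRCh38.p14). All 43 listed genes matched by current symbol, with 75 probes. Each gene was read from the probe whose log2 signal, averaged over the arrays, was highest. Genes named in full had 1.5-fold or more, 1 detecting array or probes on both sides of 0; further lists gave their 2 highest and 2 lowest genes. CDK7, CCNH, MNAT1 and the RPA genes were named after their values were seen. The array files name no genome build. The members and lists were chosen with earlier results of these data known. The steps were tested on simulated data, and 8 alternatives were run. The number of arrays limits the precision.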

Additional observations from a re-analysis of the deposited data

How the results depend on the processing

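Single-gene ratios kept their direction, apart from PARG under median scaling (0.01) and MUTYH (0.11), MSH3 (-0.14) and PMS2 (-0.42) with the median of the detected probes. The MUTYH and PMS2 values rest in part on dim probes detected only on the array where they are higher. The medians of base excision repair (-0.21 to -0.10), nucleotide excision repair (-0.14 to -0.02) and the replication list (-0.38 to -0.29) kept their sign under the 7 alternatives to which they apply, and that of mismatch repair became -0.27 with the median of the probes. Without background correction, base excision repair had 1 gene lower and 0 higher by 2-fold, nucleotide excision repair and the further lists 0 lower, and all genes 27 lower and 98 higher. With an offset of 50 there were 0 base excision repair genes higher, 0 nucleotide excision repair and 0 further genes lower, and 70 genes lower and 213 higher in all. On genes detected on both arrays, 125 genes were lower and 253 higher in all, and 0 further genes were lower, as under median scaling. With the median of the probes, 1 nucleotide excision repair gene, DDB1, was higher, through a dim probe detected in radiation-adapted cells alone. At 1.5-fold, 3 nucleotide excision repair genes, 6 further genes and 977 genes in all were lower, and 1272 were higher. Leaving out the background correction and a larger offset shrink ratios of dim genes by construction, and the filter on both arrays tests fewer genes. Under median scaling the cause of the lost further gene, DDB2, was not tested. With 1 array per group no replicate could be left out, and no paired analysis was possible because neither group has a second sample. Signal over background limits the dim genes, NEIL1, GTF2H2 and PARG first.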

Other observations

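A further pattern was noticed after the promoters had been searched. Of the 6 windows with the ETS core CCGGAAGT, 4 belonged to TFIIH genes, which is 4 of 7 TFIIH windows: ERCC3, GTF2H1, GTF2H2 and GTF2H3. The other 2 were those of the glycosylase genes NTHL1 and OGG1. The log2 ratios of the 4 TFIIH genes were 0.14, -0.75, 0.33 and -0.62, on both sides of 0. The ETS core was found in 9.43% of the windows of detected genes and in 4.44% of all windows. The count over TFIIH windows was picked out after the matches were seen, and no test was made of it.

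The TFIIH kinase module was read from the list of further nucleotide excision repair genes. CDK7, its kinase, had raw signals of 874.0 in wild type and 895.2 in radiation-adapted cells (log2 ratio 0.01). CCNH, its cyclin, was at -0.17, and MNAT1, the assembly factor, at -0.30. The 3 subunits of RPA, which coats single-stranded DNA in all 3 pathways, were each lower: RPA1 at -0.21, RPA2 at -0.45 with raw signals of 5044.7 and 3849.8, and RPA3 at -0.50 with 3781.7 and 2820.9. None of these genes reached 1.5-fold. Of all 10189 genes, 7940 were also under 1.5-fold and 5437 were below 0. The kinase module and RPA genes were named after their values were seen.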
